A study of Mus musculus with 6 samples.

Results

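The genes described here are 10 early response genes of the mouse lung: the orphan nuclear receptors Nr4a1, Nr4a2 and Nr4a3, the dual specificity phosphatases Dusp1, Dusp5 and Dusp6, and the early feedback genes Ier2, Ier3, Zfp36 and Btg2. They were taken by symbol from a count table of 41388 genes. Each symbol matched 1 gene, and all 10 passed the filter on low counts. Lung RNA was sequenced from adult Zpbp2 knock-out mice (KO) and wild type C57BL/6J mice (WT), with 3 libraries per group (WT1, WT2, WT3 and KO1, KO2, KO3). The KO mice (B6.129S7-Zpbp2tmZuk/Mmjax) lack the 5' part of Zpbp2 (exons 1 to 3) constitutively, and all samples are labelled with the C57BL/6J strain. Both genotypes were bred in a single colony. Neither genotype was treated, and every lung was taken at ZT7, the Zeitgeber time 7 h into the light phase. The labels give no exact age.

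Library totals ran from 59134950 to 71354388 counts, so each of the 10 genes rests on at least 408 counts in every library. Zpbp2 had 20, 15 and 7 counts in the WT libraries and 1, 0 and 0 in the KO libraries, as the labels require. The libraries KO2 and KO3 were nearly alike, and whether they came from separate RNA samples could not be settled from the counts. Between them the median variance was 1.71 to 3.37 times that of counting alone, over 4 classes of count, whereas it reached 161 times between KO1 and KO2 and 67.3 times between WT libraries. The pair was taken as 1 sample unless stated otherwise, which leaves 3 WT and 2 KO samples, and a KO mean averages KO1 with the mean of the pair. This was decided with the data in view. Levels are in CPM, the counts of a gene per 1000000 counts after scaling. Markers of alveolar type 2, alveolar type 1 and club cells were abundant in all libraries. In whole lung, fewer cells of a type and less RNA per cell cannot be told apart.

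Early response genes are transcribed within minutes of a signal, without new protein synthesis, mostly through mitogen-activated protein (MAP) kinases acting on serum response factor (SRF) and CREB. Many of their products then limit the signal. Dual specificity phosphatases remove the activating phosphates from MAP kinases, tristetraprolin (the product of Zfp36) binds AU-rich elements and speeds the decay of cytokine mRNAs, and BTG2 recruits the CCR4-NOT deadenylase. The NR4A receptors act as transcription factors without a known classical ligand. In lung, these genes are best known from inflammation and from the action of glucocorticoids.

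Zfp36, Btg2, Dusp1, Ier2 and Ier3 had a higher level in every KO library than in any WT library, by a factor of 1.31 (Ier3) to 2.85 (Zfp36) between the means. The remaining 5 genes overlapped between genotypes. Nr4a1 was high in KO2 and KO3 only, and Nr4a2, Nr4a3, Dusp5 and Dusp6 had KO means within 0.721 to 1.12 times the WT mean. None of the 10 genes was called by the edgeR quasi-likelihood test, for which the adjusted p had to be 0.05 or less. Over all 18660 tested genes 426 (2.28%) were called, 1.38% as higher in KO. The nominal p, before adjustment, was 0.05 or less for 5 of the 10 genes (Dusp1, Ier2, Ier3, Zfp36 and Btg2), all higher in KO. Over all tested genes this share was 27.3% in either direction and 13.9% in that direction. Complete separation with KO above WT was seen in 20.1% of all tested genes. The median log2 fold change of the 10 genes was 0.70, and that of all tested genes was 0.02. Nr4a1, Dusp1, Ier2, Zfp36 and Btg2, 5 of the 10, had a log2 fold change of 1 or more, as did 2.32% of all tested genes.

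**Figure D1:**
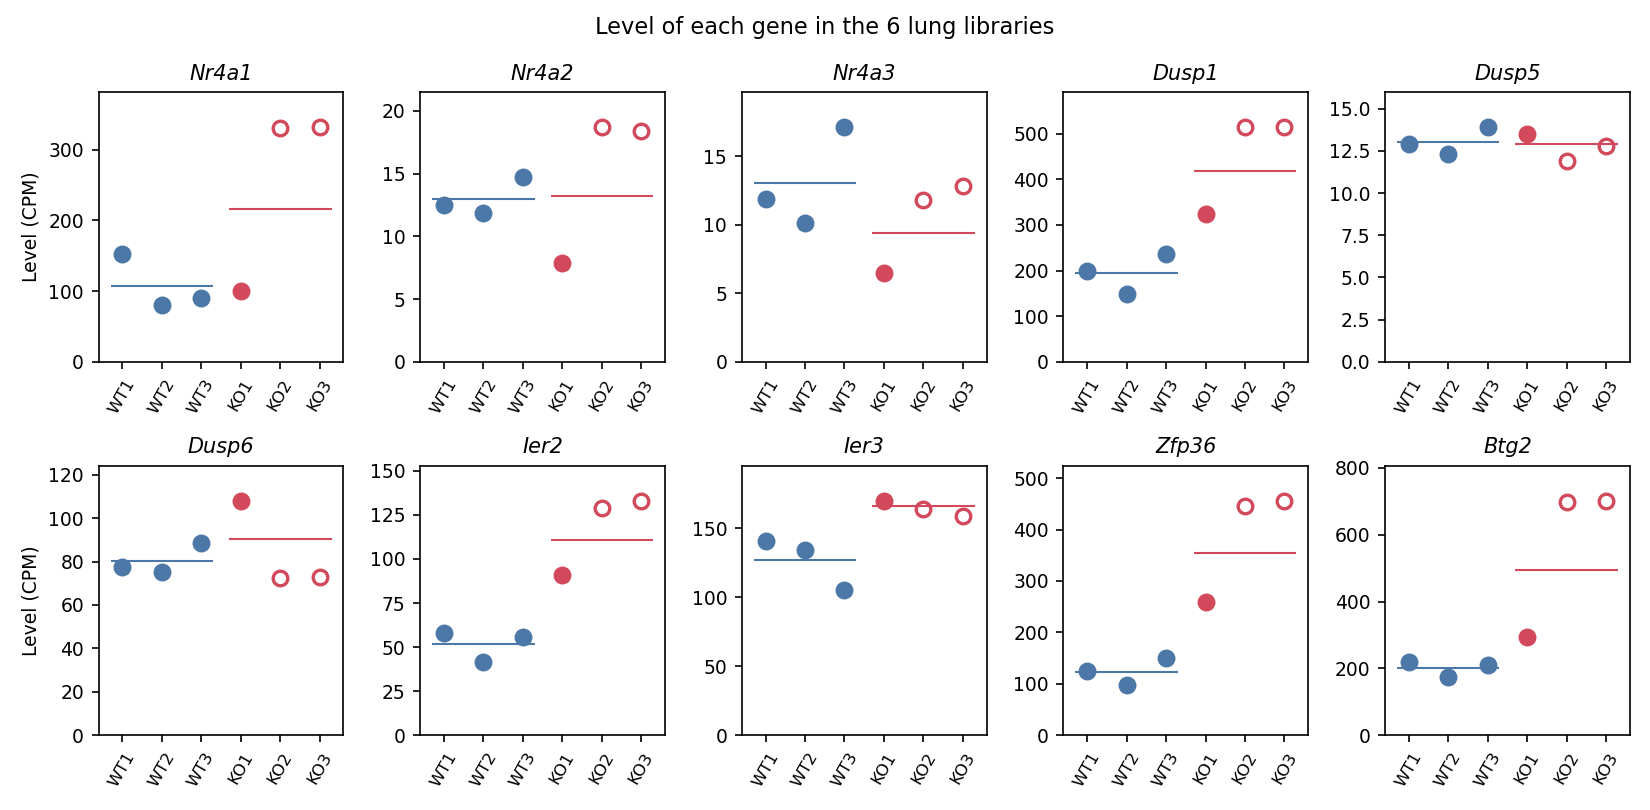
Level (CPM, vertical axis from 0) of each gene in the 6 libraries, with WT in blue and KO in red. KO2 and KO3, counted as 1 sample, are open circles, and lines are genotype means. Zfp36, Btg2, Dusp1, Ier2 and Ier3 have all KO points above all WT points, while Nr4a1 in KO1 (99.6 CPM) lies within the WT range of 80.3 to 152 CPM.

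When the 6 libraries were kept separate, which treats KO2 and KO3 as independent, Zfp36, Ier2, Dusp1 and Btg2 were called higher in KO, 4 of 10 genes against 9.81% of all genes tested in that fit. DESeq2 on the merged samples called these and Ier3 as higher, 5 of 10 against 10.6%. Ier2, Zfp36 and Btg2 were called higher with a term for squamous epithelium transcripts (6.5% of all tested genes). Ier2 and Zfp36 were called higher with the edgeR exact test (0.338%) and with a minimum of 10 counts per library (3.08%). The 6 libraries kept separate with the replicate number as a block also gave Ier2 and Zfp36 (2.99%), against 4 genes in the 6-library fit without the block. The number of calls, for these genes as for the whole table, thus depended on the fit.

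**Figure D2:**
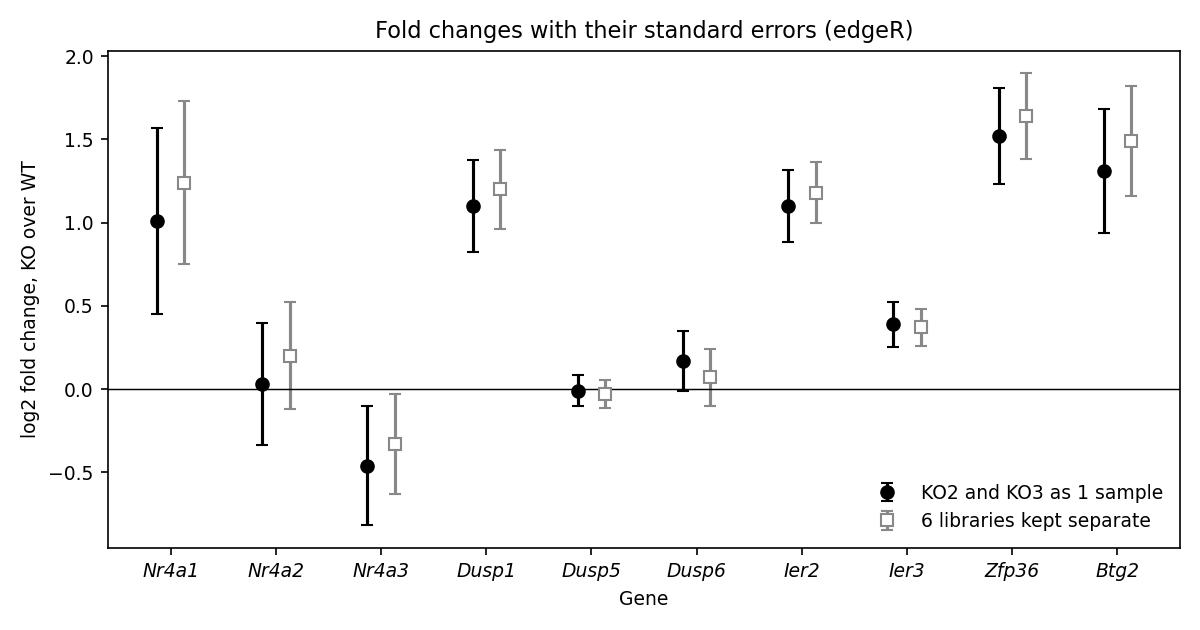
log2 fold change of KO over WT (vertical axis) for each gene, with bars of 1 standard error on either side. Filled circles are the fit with KO2 and KO3 as 1 sample and open squares the fit with the 6 libraries kept separate. Zfp36 has the highest value in both, 1.52 and 1.64, and Dusp5 lies closest to 0, at -0.01 and -0.03.

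The NR4A receptors differed among themselves. Nr4a1 (ENSMUSG00000023034, chr15:101254269-101274795, plus strand), which encodes NUR77, was at 152, 80.3 and 90.3 CPM in WT1 to WT3 and at 99.6, 331 and 332 CPM in KO1 to KO3. KO2 and KO3 were thus above all other libraries and KO1 was not. The means were 108 ± 39.1 CPM in WT (SD, n = 3) against 216 ± 164 CPM in KO (SD, n = 2). Its log2 fold change was 1.01 (SE 0.56, edgeR adjusted p 0.315). With KO1 as the lone KO sample the value was -0.12, and with KO1 left out it was 1.62.

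Nr4a2 (ENSMUSG00000026826, chr2:57106830-57124003, minus strand), which encodes NURR1, was at 12.5, 11.9 and 14.7 CPM in WT and at 7.90, 18.7 and 18.4 CPM in KO. The KO libraries therefore lay on both sides of the WT range. The log2 fold change was 0.03 (SE 0.37, adjusted p 0.973), and -0.73 with KO1 alone. Nr4a3 (ENSMUSG00000028341, chr4:48045153-48086447, plus strand), which encodes NOR1, was at 11.9, 10.1 and 17.1 CPM in WT and at 6.49, 11.8 and 12.8 CPM in KO, so that KO1 was the lowest library. Its log2 fold change was -0.46 (SE 0.36, adjusted p 0.460). All 3 receptors were thus lowest in KO1 among the KO libraries, and only Nr4a1 went above 2 times the WT mean in KO2 and KO3 (3.08 times).

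Among the phosphatases, Dusp1 alone separated the genotypes. DUSP1 is a nuclear phosphatase of p38, JNK and ERK. Dusp1 (ENSMUSG00000024190, chr17:26505590-26562128, minus strand) was at 200, 148 and 237 CPM in WT1 to WT3 and at 323, 514 and 514 CPM in KO1 to KO3. Every KO library exceeded every WT library, and KO1 stood between the WT libraries and the other KO libraries. The means were 195 ± 44.6 CPM in WT (SD, n = 3) against 418 ± 135 CPM in KO (SD, n = 2), or 1.10 as log2 fold change (SE 0.28). Its adjusted p was 0.0859, and 0.0212 with the 6 libraries kept separate. The annotated span of Dusp1 overlaps Ergic1 and the pseudogene Gm8225 on the other strand, and AC122252.4 and AC122252.1 on its own strand. Those of Zfp36 and Dusp5 overlap the antisense genes Gm44710 and AC137853.2. Whether counting used the strand was not given in the sources used here, so reads of pairs on opposite strands may not be told apart. For pairs on the same strand the strand could not separate them.

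Dusp5 and Dusp6 encode phosphatases of ERK, in the nucleus and in the cytoplasm. Dusp5 (ENSMUSG00000034765, chr19:53529109-53542431, plus strand) was at 12.9, 12.3 and 13.9 CPM in WT and at 13.5, 11.9 and 12.8 CPM in KO. Its log2 fold change of -0.01 had the smallest standard error of the 10 genes, 0.094 (adjusted p 0.971). Dusp6 (ENSMUSG00000019960, chr10:99263231-99267489, plus strand) was at 77.3, 75.4 and 88.6 CPM in WT and at 108, 72.2 and 72.7 CPM in KO. KO1 was the highest library and KO2 and KO3 the lowest. The log2 fold change was 0.17 (SE 0.18, adjusted p 0.594), and -0.15 when KO1 was left out.

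Both IER genes were higher in all KO libraries, by different amounts. Ier2 (ENSMUSG00000053560, chr8:84661331-84662852, minus strand), a single-exon gene for a nuclear protein, was at 58.0, 41.7 and 55.6 CPM in WT and at 90.7, 129 and 133 CPM in KO. The means were 51.8 ± 8.78 CPM in WT (SD, n = 3) against 111 ± 28.4 CPM in KO (SD, n = 2), or 1.10 as log2 fold change (SE 0.21, adjusted p 0.0600). With the 6 libraries kept separate the adjusted p was 0.0122. Ier3 (ENSMUSG00000003541, chr17:35821684-35822923, plus strand), which encodes the stress and survival protein IEX-1, was at 141, 134 and 105 CPM in WT and at 170, 164 and 159 CPM in KO. The KO libraries lay close together, and the log2 fold change was 0.39 (SE 0.14, adjusted p 0.149).

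Of the genes that act on mRNA decay, Zfp36 had the smallest p of the 10 genes. Zfp36 (ENSMUSG00000044786, chr7:28376784-28380253, minus strand) was at 125, 98.2 and 151 CPM in WT1 to WT3 and at 260, 446 and 456 CPM in KO1 to KO3. The lowest KO library was above the highest WT library. The means were 124 ± 26.2 CPM in WT (SD, n = 3) against 355 ± 135 CPM in KO (SD, n = 2), or 1.52 as log2 fold change (SE 0.29). The edgeR adjusted p was 0.0587, just over the threshold, and 0.0121 with the 6 libraries kept separate. The study had picked Zfp36 from these libraries, so its value is not independent evidence.

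Btg2 (ENSMUSG00000020423, chr1:134075170-134079120, minus strand), an antiproliferative gene also induced by p53, was at 219, 174 and 209 CPM in WT and at 293, 697 and 702 CPM in KO. KO2 and KO3 were 2.39 times as high as KO1, which was itself above the WT libraries. The means were 200 ± 23.7 CPM in WT (SD, n = 3) against 496 ± 288 CPM in KO (SD, n = 2), and the log2 fold change was 1.31 (SE 0.37, adjusted p 0.105). With the 6 libraries kept separate the adjusted p was 0.0289. With KO1 as the lone KO sample the log2 fold change was 0.54.

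The KO samples did not carry these genes to the same level. The KO2 and KO3 average was at least 2 times KO1 for 3 of the 10 genes, Nr4a1 (3.33 times), Btg2 and Nr4a2 (2.34 times), against 3.37% of all tested genes. It was 1.89 times KO1 for Nr4a3, 1.74 times for Zfp36, 1.59 times for Dusp1 and 1.44 times for Ier2, close to KO1 for Ier3 (0.951 times) and Dusp5 (0.915 times), and 0.668 times KO1 for Dusp6. Among the WT libraries, the highest level was between 1.13 times (Dusp5) and 1.90 times (Nr4a1) the lowest. WT2 was the lowest WT library for 9 of the 10 genes, Ier3 being the exception, though by little for Dusp5 (12.3 CPM against 12.9 CPM in WT1). The share of all tested genes that were lowest in WT2 was not determined, so this count has no baseline.

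**Figure D3:**
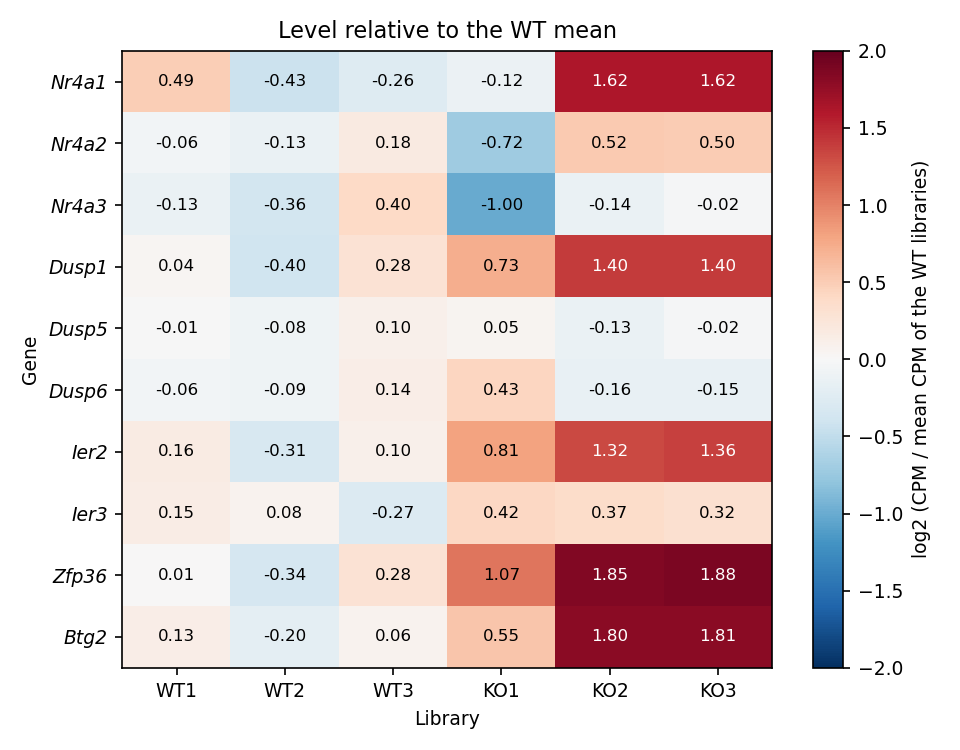
log2 ratio of the level in each library (columns) to the mean of the WT libraries for each gene (rows), with red above and blue below the mean. Zfp36 and Btg2 reach 1.88 and 1.81 in KO3, and Nr4a2 lies at -0.72 in KO1.

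Over the 6 libraries the profiles of Dusp1, Ier2, Zfp36 and Btg2 ran in parallel. Pearson's r of log2(CPM + 0.5) was 0.99 for Dusp1 with Ier2 and with Zfp36, and 0.97 for Zfp36 with Btg2. It was 0.93 for Nr4a1 with Btg2 and 0.75 for Dusp5 with Dusp6, against -0.52 for Nr4a1 with Dusp5 and -0.81 for Nr4a2 with Dusp6. These are descriptions over 6 libraries of both genotypes, so r includes the difference between WT and KO, and KO2 and KO3 give nearly the same point. Outside the 10 genes, the tested gene with the nearest centred profile was Junb for Zfp36 (root mean square difference 0.131 on the log2 scale), Fosb for Nr4a1 (0.179), Nrgn for Dusp1 (0.123) and for Ier2 (0.0793), and 8430408G22Rik for Btg2 (0.0943). For the other genes the nearest were Fhl1 for Dusp6 (0.00989), Tox3 for Dusp5 (0.0159), Cd3d for Ier3 (0.0501), Tff2 for Nr4a2 (0.118) and Ighj2 for Nr4a3 (0.135).

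Levels of the 10 genes were compared with each other only per length, as CPM per kb of exon. In WT the order ran from Ier3 (93.2 to 125 CPM per kb) over Btg2 (63.3 to 79.7), Dusp1 (44.8 to 71.7), Zfp36 (28.3 to 43.4), Ier2 (27.4 to 38.1), Nr4a1 (22.9 to 43.4) and Dusp6 (24.1 to 28.3) to Dusp5 (4.97 to 5.61), Nr4a2 (2.93 to 3.63) and Nr4a3 (1.69 to 2.85). Btg2 and Dusp1, and the neighbours from Zfp36 to Dusp6, overlapped in range. The ranges of Ier3 and Btg2, of Dusp1 and Zfp36, of Dusp6 and Dusp5, and of the 3 lowest genes did not overlap. In KO2 and KO3, Btg2 (254 and 256 CPM per kb) stood above Dusp1 (155 in both) and Ier3 (145 and 141), while in KO1 Ier3 remained highest at 150.

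The start-site sequences of the genes with the smallest p are shown because these genes had parallel profiles. RefSeq on GRCm38.p6 gave promoters for 9 of the 10 genes, and Ier2 had no entry. The 250 bases before the start of Zfp36 (chr7:28379229-28379478, minus strand), Dusp1 (chr17:26508473-26508722, minus strand) and Btg2 (chr1:134079156-134079405, minus strand) follow, 5' to 3'. Capitals mark matches to the CRE (TGACGTCA) and its core (TGACG, which the full CRE contains), to the CArG box bound by SRF and to the E-box (CACGTG), on either strand.
Zfp36: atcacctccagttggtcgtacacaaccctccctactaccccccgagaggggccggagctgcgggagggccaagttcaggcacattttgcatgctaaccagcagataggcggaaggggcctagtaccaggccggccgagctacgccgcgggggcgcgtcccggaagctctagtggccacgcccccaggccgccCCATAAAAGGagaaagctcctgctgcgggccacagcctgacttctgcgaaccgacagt
Dusp1: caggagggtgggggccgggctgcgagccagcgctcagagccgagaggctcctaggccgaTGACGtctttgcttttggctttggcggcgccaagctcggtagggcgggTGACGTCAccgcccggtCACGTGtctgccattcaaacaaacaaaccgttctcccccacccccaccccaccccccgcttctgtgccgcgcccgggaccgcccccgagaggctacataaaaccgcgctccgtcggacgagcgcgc
Btg2: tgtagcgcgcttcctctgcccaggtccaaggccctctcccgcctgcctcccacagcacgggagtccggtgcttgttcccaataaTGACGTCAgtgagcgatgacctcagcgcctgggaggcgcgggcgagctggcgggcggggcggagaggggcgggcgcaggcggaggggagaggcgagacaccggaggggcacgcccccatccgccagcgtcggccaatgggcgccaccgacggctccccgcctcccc

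A full CRE was found in 2 of the 9 promoters, Dusp1 (bases 143 to 136 before the start) and Btg2 (166 to 159), and in 1.55% of 32851 RefSeq promoters of the same length. The CRE core was present in 6 of the 9, Nr4a1, Nr4a2, Nr4a3, Dusp1, Dusp5 and Btg2, and in 17.8% of all promoters. A CArG box was found in Zfp36 (58 to 49) and in Dusp5, and in 1.47% of all promoters. The Dusp5 stretch (chr19:53529058-53529087, plus strand), chosen after the values were seen because its level hardly differed between genotypes, holds 2 CArG boxes side by side, in capitals.
Dusp5: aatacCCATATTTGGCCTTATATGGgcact
The Dusp1 window also held an E-box (126 to 121), found in 6.02% of promoters. The AP-1 (TGAGTCA) and EGR (GCGTGGGCG) letters and the NBRE bound by NR4A receptors (AAAGGTCA), found in 4.46%, 0.536% and 1.34% of promoters, were in none of the 9 windows. The GC box (GGGCGG, not marked) was in 8 of the 9 and in 32.7% of promoters. These matches are letters in a window and not measured sites. The share of G and C bases was at least 54.4% (Ier3) in each of the 9 windows, and 74.4% in Nr4a1. Over all promoters its median was 52.4%. The shares over all promoters were not matched for G and C bases. Whether any motif was more frequent here than in promoters of like composition was not tested.

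Gene structure was taken from GENCODE M21. The median number of exons was 3.5, against 9 in 15953 tested protein-coding genes, and 7 of the 10 had at most 4 exons, as did 23.2% of the coding genes. Only the NR4A genes, with 8 exons each, were near the general median. The AU-rich pentamer ATTTA, part of the elements bound by ZFP36, occurred in the 3' UTR of 9 of the 10 genes (66.8% of coding genes) and at least 3 times in 7 of them (36.0%). Nr4a3, Ier3 and Btg2 had 5 each, Zfp36 itself had 3 and Ier2 had 0. Over all tested genes the log2 fold change was lower in longer genes, with medians of 0.17, 0.10, 0.00 and -0.12 in 4 classes of equal size from short to long, which held 2, 6, 2 and 0 of the 10 genes. With an offset for gene length and GC content the log2 fold changes were 1.5 for Zfp36, 1.3 for Btg2, 1.07 for Dusp1, 0.89 for Ier2 and 0.23 for Ier3, and 4 of the 10 had a nominal p of 0.05 or less. With this offset 0 of 18660 tested genes were called and 3636 had a nominal p of 0.05 or less.

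The genes around this group were counted from lists of related function. Over all 18660 tested genes, edgeR called 2.28% and DESeq2 called 3919 genes, with 10.6% of all genes called higher. A nominal p of 0.05 or less was seen in 27.3%, and in 13.9% as higher in KO. Of the AP-1 and EGR factors, 11 of 12 were tested and 1, Jund, was called higher (log2 fold change 0.91, SE 0.11, adjusted p 0.0446). Jund was at 142, 129 and 160 CPM in WT and at 259, 289 and 270 CPM in KO. The other 10 were not called, and the median over the list was 0.83 on the log2 scale. DESeq2 called 4 higher, and 4 were higher and 1 lower at a nominal p of 0.05 or less. Fos, chosen after its values were seen, was at 60.1, 22.3 and 48.6 CPM in WT and at 113, 349 and 355 CPM in KO (adjusted p 0.0893). It resembled Btg2 in that KO2 and KO3 exceeded KO1. The study had picked Fos and Junb from these libraries, so the count is not independent evidence.

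The other MAP kinase phosphatases gave 0 of 7 called by edgeR, 0 by DESeq2 and 0 at a nominal p of 0.05 or less, with log2 fold changes from -0.23 to 0.19. Dusp7 and Dusp16, those with the most counts by mean CPM, had -0.04 (SE 0.08) and -0.14 (SE 0.14). Sprouty, Spred and Errfi1 genes, feedback inhibitors of receptor signalling to ERK, had 0 of 8 called by edgeR and by DESeq2, 1 at a nominal p of 0.05 or less and a median of -0.05. Errfi1 was at 0.01 (SE 0.18) and Spry1 at 0.23 (SE 0.10). Relatives of the IER, ZFP36 and BTG proteins had 0 of 10 called (3 higher by DESeq2), 4 higher at a nominal p of 0.05 or less and a median of 0.07. Zfp36l1 and Zfp36l2, the more abundant paralogs of Zfp36, were at 0.09 (SE 0.11) and 0.05 (SE 0.09) on the log2 scale, against 1.52 for Zfp36. Zfp36l3, a paralog with only 7 to 14 counts per library, was at -0.58 (SE 0.32).

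Kinases and transcription factors that act above these genes, and the deadenylase below them, were counted next. Over all 18660 tested genes DESeq2 called 3919, and 27.3% had a nominal p of 0.05 or less. Of 20 MAP kinases and kinases above them 1 was called, Mapk12 (p38 gamma; log2 fold change 0.41, SE 0.05, adjusted p 0.0446), and the list median was 0.05. DESeq2 called 6 higher and 2 lower, and 6 were higher and 2 lower at a nominal p of 0.05 or less. Of the SRF, ternary complex and CREB factors 0 of 12 were called (2 by DESeq2), 3 at a nominal p of 0.05 or less (2 higher, 1 lower). Elk3 and Elk4 had 0.01 (SE 0.09) and 0.16 (SE 0.07). CCR4-NOT subunits had 0 of 11 called (2 by DESeq2) and 2 at a nominal p of 0.05 or less, 1 in each direction. Cnot1, the scaffold of the complex, was at 156, 177 and 161 CPM in WT and 111, 121 and 119 CPM in KO, and its log2 fold change was -0.51 (SE 0.08, adjusted p 0.0501). Cnot6 was at -0.06 (SE 0.07).

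The cytokine and Ptgs2 mRNAs that ZFP36 is known to bind had 0 of 9 tested genes called (2 higher by DESeq2), 3 higher at a nominal p of 0.05 or less and a median log2 fold change of 0.66. Over all tested genes 10.6% were called higher by DESeq2, and 13.9% were higher at that nominal p. Ptgs2, the inducible cyclooxygenase, was at 19.2, 15.3 and 15.6 CPM in WT and at 17.7, 33.2 and 33.1 CPM in KO, so that KO1 lay in the WT range. Il1b was at 15.1, 9.93 and 8.57 CPM in WT and at 15.3, 21.2 and 20.2 CPM in KO, with an adjusted p of 0.197.

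**Figure D4:**
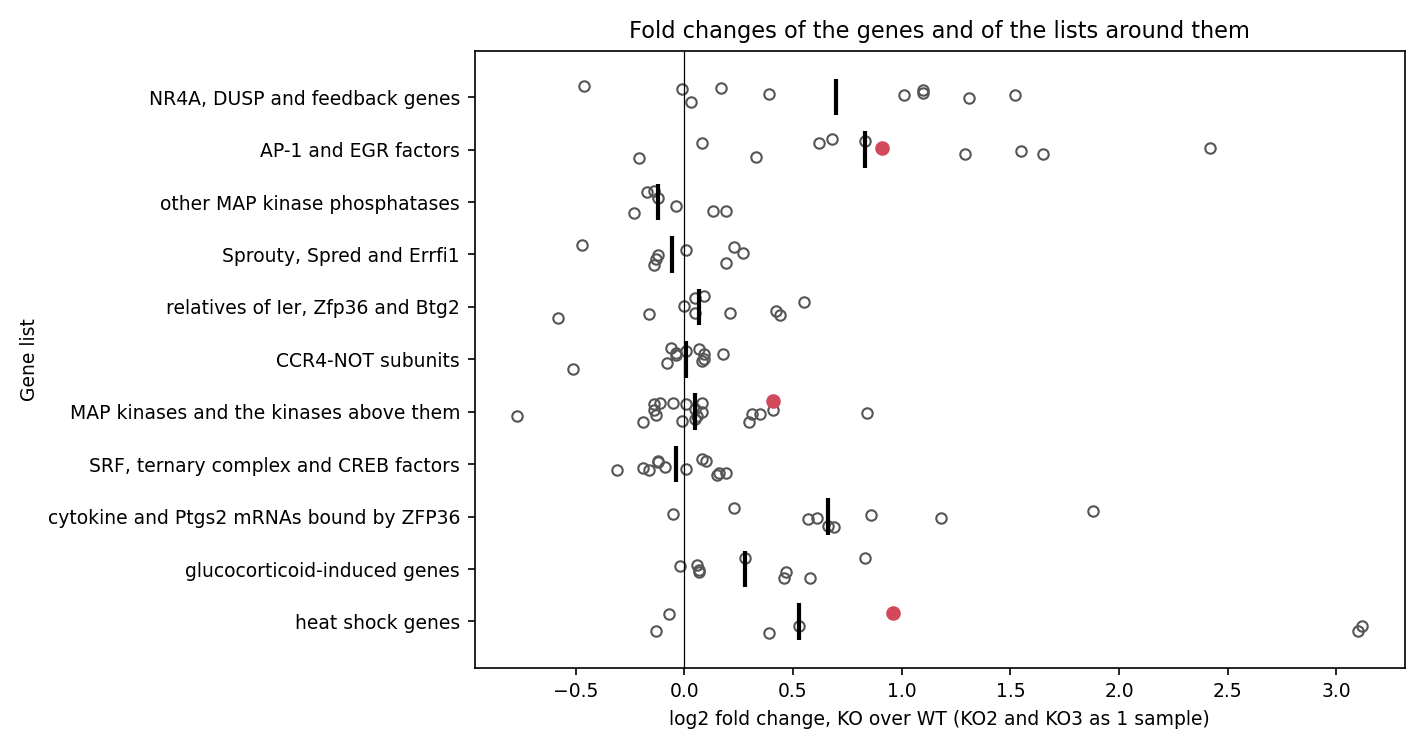
log2 fold change of KO over WT (horizontal axis) of each tested gene, by list, with KO2 and KO3 as 1 sample. Filled red points are called (adjusted p 0.05 or less), and black bars are list medians, 0.70 for the 10 genes, 0.83 for AP-1 and EGR factors and -0.12 for the other MAP kinase phosphatases.

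Marker transcripts of other tissues and cell types also differed between the libraries, and, but for the squamous epithelium term, their part in the values above was not tested. Summed over the 6 adipocyte markers, all found, the level was 426 to 687 CPM in WT and 54.0 to 136 CPM in KO, and the 6 cardiomyocyte markers summed to 2120 to 5470 CPM and 1270 to 1460 CPM. The 5 alveolar type 2 markers summed to 19000 to 19800 CPM in WT and 27500 to 29200 CPM in KO. The sums of the 4 alveolar type 1 and of the 3 club cell markers were also above WT in every KO library, though not each marker was (4280 to 4530 against 3230 to 3370 CPM, and 36700 to 48600 against 27200 to 32000 CPM). The 6 erythroid markers were at 19000 and 19700 CPM in KO2 and KO3, 3970 CPM in KO1 and 2400 to 5520 CPM in WT. KO2 and KO3, counted as 1 sample, were thus highest for these markers and for Nr4a1. Within WT the 2 went apart, with the markers highest in WT3 (5520 CPM) and Nr4a1 highest in WT1 (152 CPM). The 6 hepatocyte markers, led by Alb, summed to 1.43 to 1.67 CPM in WT, 4.99 CPM in KO1 and 41.0 and 40.7 CPM in KO2 and KO3. The 10 squamous epithelium markers were at 4570 CPM in WT3 and 8780 CPM in KO1 and at 4.79 to 6.08 CPM elsewhere. With the squamous epithelium term in the fit the log2 fold change was 1.52 for Zfp36, 1.31 for Btg2, 1.11 for Dusp1 and 0.07 for Dusp6.

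The 6 neutrophil markers summed to 79.7 to 120 CPM in WT and 84.4 to 110 CPM in KO, the 5 alveolar macrophage markers to 200 to 254 and 177 to 201 CPM, and the 5 T cell markers to 51.0 to 59.4 and 60.1 to 63.0 CPM. The 4 B cell markers were at 187 to 213 CPM in WT and 163 to 172 CPM in KO. The 5 endothelial markers summed to 3130 to 3330 and 2830 to 3520 CPM, and the 5 smooth muscle markers to 895 to 1440 and 1060 to 1720 CPM. None of the markers in these lists was at 0 in every library.

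**Figure D5:**
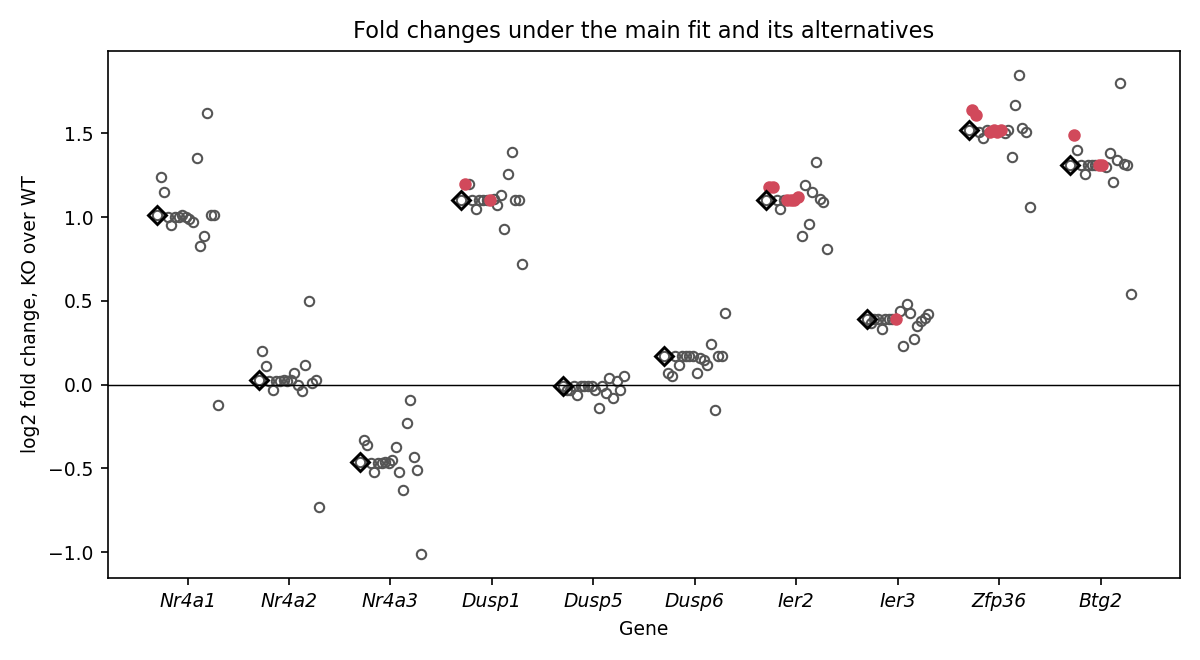
log2 fold change of KO over WT (vertical axis) for each gene under the main fit (diamond) and 17 alternatives (circles), filled red where the adjusted p was 0.05 or less. Zfp36 lies between 1.06 and 1.85 over the alternatives, and Nr4a1 between -0.12 and 1.62.

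Across the 17 alternatives the log2 fold change stayed above 0 for Zfp36 (1.06 to 1.85), Ier2 (0.81 to 1.33), Dusp1 (0.72 to 1.39), Btg2 (0.54 to 1.80) and Ier3 (0.23 to 0.48), and below 0 for Nr4a3 (-1.01 to -0.09). The adjusted p ran from 0.000459 to 0.197 for Zfp36, 8.66e-06 to 0.194 for Ier2, 0.0104 to 0.222 for Dusp1, 0.0239 to 0.281 for Btg2 and 0.0379 to 0.683 for Ier3. Zfp36 and Ier2 were each called under 6 alternatives, Btg2 under 3, Dusp1 under 2 and Ier3 under 1.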

How the data were processed

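Lung RNA was profiled by RNA sequencing at ZT7 in 3 WT and 3 KO libraries, labelled as separate mice. The deposited table holds raw counts, whole reads per gene and library without normalization. To make it the authors trimmed reads with Trimmomatic 0.36, aligned them to GRCm38 with STAR 2.5.3a and counted them with HTSeq 0.6.0 (versions from the submitters' processing notes, which also name Picard 2.9.0). The annotation release and strand setting are not given in the sources used here, so counts of overlapping genes are uncertain.

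KO2 and KO3 were summed, and edgeR 4.0.16 in R 4.3.3 was run on the counts (filterByExpr, TMM, glmQLFit and glmQLFTest, two-sided, Benjamini-Hochberg over all tested genes, threshold 0.05). Standard errors follow from the fold change and the F value. CPM were scaled with TMM over the 6 libraries. DESeq2 1.42.0 was an alternative. Positions come from GENCODE M21 (GRCm38), with an entry for 97.5% of the identifiers. The 10 genes and all lists were chosen with earlier results of these data known, so no test over a list was made. Named beyond the 10 genes are, per list, the called genes, or else the 2 with the highest mean CPM over the 6 libraries (not per length), and the gene, other than the 10, nearest in profile to each of the 10. Fos, Hspa1a, Zfp36l3, Fkbp5 and Mt1 were named after their values were seen. P-values measure the spread between these mice only. The fit was tested on simulated data. A ZT10 experiment was not analysed here.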

Additional observations from a re-analysis of the deposited data

How the results depend on the processing

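Libraries were simulated at these sizes with a common spread for all genes (18443 genes). In them 7 of 100 genes changed 2-fold and 89 of 100 changed 4-fold were called, as were 6 unchanged genes. The real spread differed between genes, so these shares do not give the share of real changes that the main quasi-likelihood fit missed. The 426 calls over all genes became 3402 with the 6 libraries kept separate (424 shared), 1157 with the 6 libraries kept separate and the replicate block together, 937 with a minimum of 10 counts per library, 209 with the edgeR exact test, 3919 with DESeq2, 2201 with the squamous epithelium term and 0 with the length and GC offset (3636 at a nominal p of 0.05 or less). Leaving out replicates gave 0 to 418 calls, with 0 without WT1, WT2 or WT3 (3346 to 4193 at a nominal p of 0.05 or less), 17 without KO1 and 0 with KO1 as the lone KO sample, whose spread was then taken from the WT libraries. The cause was not tested. With library size alone the share of calls that were higher in KO went from 60.3% to 38.2%.

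The replicate numbers do not pair the mice. Deviations of same-numbered libraries from their genotype means correlated at -0.54, 0.69 and -0.76, and not every library correlated best with its own number. The paired fit with the replicate block also kept KO2 and KO3 separate. It called Ier2 and Zfp36, 2 of the 10 genes, against 4 in the 6-library fit without the block, and lowered the calls over all genes from 3402 to 1157. The number called was 2 with the count minimum and with the exact test, 3 with the squamous term, 5 with DESeq2 and 0 under each setting that left out a replicate.

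Direction turned for Nr4a1, whose main value was 1.01, with KO1 as the lone KO sample, and for Nr4a2, Dusp5 and Dusp6, whose main values were 0.03, -0.01 and 0.17. Leave-one-out values were -0.12 to 1.62 for Nr4a1, -0.73 to 0.50 for Nr4a2, -0.08 to 0.05 for Dusp5 and -0.15 to 0.43 for Dusp6, and Nr4a2 was at -0.03 with library size alone. With the 6 libraries kept separate 4 of 11 AP-1 and EGR factors and 2 of 10 relatives were called, all higher. Of 11 CCR4-NOT subunits 2 were called, and 2 of 12 SRF and CREB factors, 1 in each direction in both lists. Calls, all higher, were 3 of 20 for MAP kinases, 3 of 9 for mRNAs bound by ZFP36 and 5 of 7 for heat shock genes. Over all genes this fit called 3402 of 18014, 9.81% of all as higher. With the replicate block added to that fit these were 2 for AP-1 and EGR factors, 2 for MAP kinases and 4 for heat shock genes, all higher. CCR4-NOT and the SRF and CREB factors had 1 each, both lower. Over all genes 1157 of 18014 were called, 2.99% of all as higher.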

Other observations

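Heat shock and glucocorticoid-induced genes, a pair of lists not used in the comparisons above, were counted in the same edgeR fit. Of 7 heat shock genes 1 was called higher, Hspb1, a small heat shock protein, which was at 33.2, 29.1 and 38 CPM in WT and at 59.7, 70.0 and 69.7 CPM in KO (log2 fold change 0.96, SE 0.14, adjusted p 0.0474). DESeq2 called 5 of the 7 higher, and 5 were higher at a nominal p of 0.05 or less. Over all tested genes these shares were 10.6% and 13.9%. Hspa1a, an inducible HSP70 gene chosen after its values were seen, was at 6.22, 7.55 and 9.73 CPM in WT and at 22.7, 109 and 112 CPM in KO, with an adjusted p of 0.0691. The study had picked it from these libraries. KO1 lay between the WT and the other KO libraries, as it did for Zfp36, Btg2, Dusp1 and Ier2.

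Of 9 glucocorticoid-induced genes 0 were called by edgeR and 1 by DESeq2, 2 were higher at a nominal p of 0.05 or less, and the median log2 fold change was 0.28. Tsc22d3 (GILZ) was at 130, 190 and 264 CPM in WT and 196, 209 and 213 CPM in KO, and Per1, a clock gene that glucocorticoids induce, was at 90.2, 130 and 185 CPM in WT and 104, 175 and 177 CPM in KO. Both had KO levels within the WT range.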
